A study of Mus musculus with 4 samples.

Results

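Integrins, tetraspanins and the proteins that couple them to ligands and to the cytoskeleton were examined in mouse T helper 17 (Th17) cells given serum amyloid A1 (SAA1). The set holds 34 named genes of 23356 gene rows, and all 34 were found by symbol. It consists of 11 integrin α chains, 6 integrin β chains, 11 tetraspanins, the adaptors talin-1, kindlin-3 and vinculin, and 3 surface proteins of rolling and adhesion. RNA came from wild-type C57BL/6 T cells, from mice labelled as 6 to 8 weeks old, after 48 h of Th17 culture. Cells of 2 libraries received recombinant murine SAA1, an acute-phase protein, labelled as 2 ng/ml, and cells of 2 libraries received vehicle (treatment label: none). The sources used here do not name the polarising cytokines, and nothing says whether the 2 libraries of a group came from separate cultures, so the p-values may measure technical spread only.

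Integrins are heterodimers of an α and a β chain that bind matrix proteins or counter-receptors on other cells. Their affinity is raised from inside the cell when talin and kindlin bind the β chain's tail, and vinculin then ties talin to actin filaments. Tetraspanins are membrane proteins that gather integrins and other receptors into shared patches. In T cells this machinery governs arrest on vessel walls, contact with antigen-presenting cells and retention in tissue.

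Levels are given in FPKM, which counts sequenced fragments relative to transcript length and library size and so allows comparison between genes. The authors' deposited table holds 1 value per group, which their Cuffdiff run made from both libraries, so no spread between libraries can be shown and read depth is unknown. A gene was called where the adjusted p of that table was under 0.05. The standard errors (SE) below are implied by the authors' test statistic. In bulk RNA, a lower share of cells with a transcript and less transcript per cell cannot be told apart.

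Most of the adhesion programme was expressed in both conditions, and 2 of its genes passed the test, in opposite directions. Vcl, which encodes vinculin, rose to 8.58 FPKM with SAA1, against 5.23 FPKM with vehicle (1.64-fold, log2 ratio 0.72 ± 0.22). Itgb8, the β chain of the integrin αvβ8, which binds and activates latent TGF-β, fell to 0.602 FPKM with SAA1, against 1.501 FPKM with vehicle (log2 ratio -1.32 ± 0.39). In the authors' deposited table both genes carried the smallest adjusted p listed, 0.0019. That value is the floor of the table and was shared by 300 tested genes, so it does not rank these 2 above the others. In all, 2 of the 27 tested genes (7.41%) were called, while 6.52% of all 11481 tested genes were called, so the share of calls among the adhesion genes lies near the background. By direction, 1 was higher and 1 lower, beside 3.97% higher and 2.55% lower over all tested genes. The 7 untested genes were each under 1 FPKM in both groups.

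**Figure D1:**
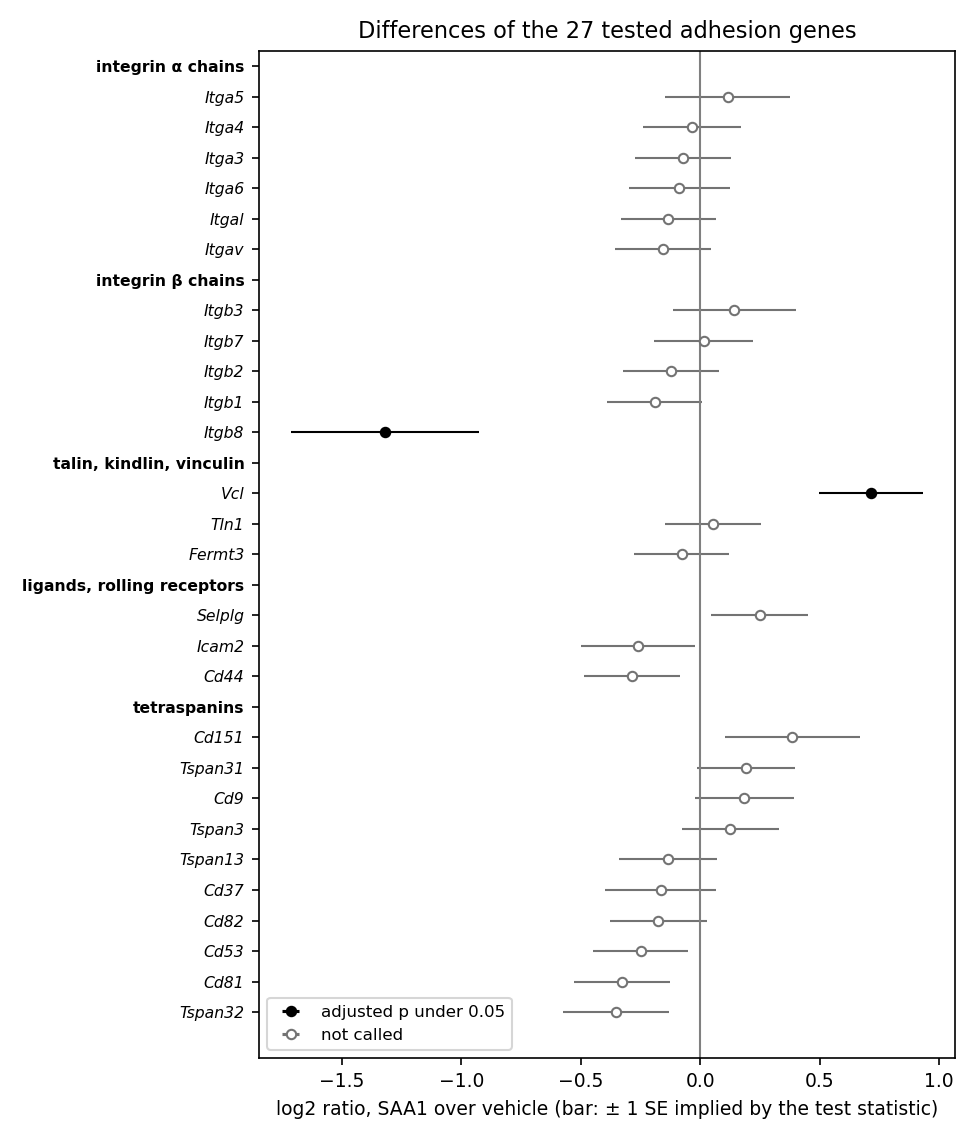
Log2 ratio of SAA1 over vehicle for each of the 27 tested adhesion genes, grouped by role, with bars of 1 SE as implied by the authors' test statistic. Filled points were called by the authors' deposited table at an adjusted p under 0.05: Itgb8 at -1.32 and Vcl at 0.72, while the 25 open points lie between -0.35 and 0.39.

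The close partners of the 2 called genes were not called themselves, though no test compared them with each other. Talin-1 (Tln1), to which vinculin binds, was at 49.8 FPKM with SAA1 and 47.9 FPKM with vehicle (log2 ratio 0.05 ± 0.20). Kindlin-3 (Fermt3), the kindlin of blood cells, was at 113.9 FPKM with SAA1 and 120.2 FPKM with vehicle (log2 ratio -0.08 ± 0.20), and its locus overlaps that of Trpt1, so its reads are uncertain. Neither passed the test, with adjusted p of 0.95 and 0.91 in the authors' deposited table. Vinculin was the least abundant of the 3 adaptors in both groups and the only one called. Itgav, the sole α chain known to pair with β8, was at 16.3 FPKM with SAA1 and 18.2 FPKM with vehicle, and its adjusted p was 0.71 in the authors' deposited table. Its transcript exceeded that of Itgb8 27.2-fold with SAA1 and 12.1-fold with vehicle.

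Itgb8 was close to the lower end of what was tested, and it reached 1 FPKM with vehicle but not with SAA1. Vcl lies on mouse chromosome 14 at chr14:20929433-21033673 (mm10, plus strand) and Itgb8 on chromosome 12 at chr12:119162803-119238276 (mm10, minus strand). Each interval spans a whole protein-coding gene with its introns, and neither overlaps another gene row. Of the ligands of αv integrins, Tgfb1, whose latent protein is a target of αvβ8, was at 11.2 FPKM with SAA1 and 12.8 FPKM with vehicle (adjusted p 0.66 in the authors' deposited table).

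The promoters of the called genes are shown because these were the only members whose transcripts passed the test. Each is the RefSeq window (GRCm38.p6, the assembly of mm10) from 250 bases before to 50 bases after a gene start, 5′ to 3′ on the gene's own strand. Capitals mark the CArG box, to which serum response factor is known to bind, and the CCAAT motif, which is read as ATTGG on the opposite strand.
Vcl, chr14:20929148-20929447, plus strand: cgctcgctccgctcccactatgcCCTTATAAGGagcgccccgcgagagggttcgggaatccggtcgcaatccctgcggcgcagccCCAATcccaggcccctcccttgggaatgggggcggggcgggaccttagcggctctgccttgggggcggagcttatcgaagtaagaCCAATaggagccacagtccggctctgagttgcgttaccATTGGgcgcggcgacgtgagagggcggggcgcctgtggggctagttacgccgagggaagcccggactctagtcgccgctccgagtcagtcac
Itgb8, chr12:119238227-119238526, minus strand: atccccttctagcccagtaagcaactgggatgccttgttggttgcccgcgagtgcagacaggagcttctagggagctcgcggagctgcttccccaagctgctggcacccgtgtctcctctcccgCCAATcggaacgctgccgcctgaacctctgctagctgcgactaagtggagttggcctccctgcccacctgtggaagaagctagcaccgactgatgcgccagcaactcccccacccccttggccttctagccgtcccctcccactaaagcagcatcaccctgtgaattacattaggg

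The Vcl window holds 1 CArG box, CCTTATAAGG, at positions -227 to -218 relative to the RefSeq start used for that window, and it overlaps no other motif searched. That RefSeq start lies upstream of the start of the Vcl interval given above. A CArG box was found in 1.63% of all 32851 promoter windows, and among the 27 adhesion genes with a window only Vcl had one. The CCAAT motif was found in 37.4% of all windows and in windows of 9 of those 27 genes, Vcl and Itgb8 included. The STAT motif TTCNNNGAA, present in 8.3% of all windows, matched a window of Cd82 alone among these genes. The AP-1 motif TGANTCA, present in 7.81% of all windows, matched those of Itga3 and Itgax. Both strands were searched for each motif, and a match is a description of the letters only. Itga6, Itgae, Itgal, Itgb2, Itgb3, Selplg and Icam2 had no window in the table used.

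**Figure D2:**
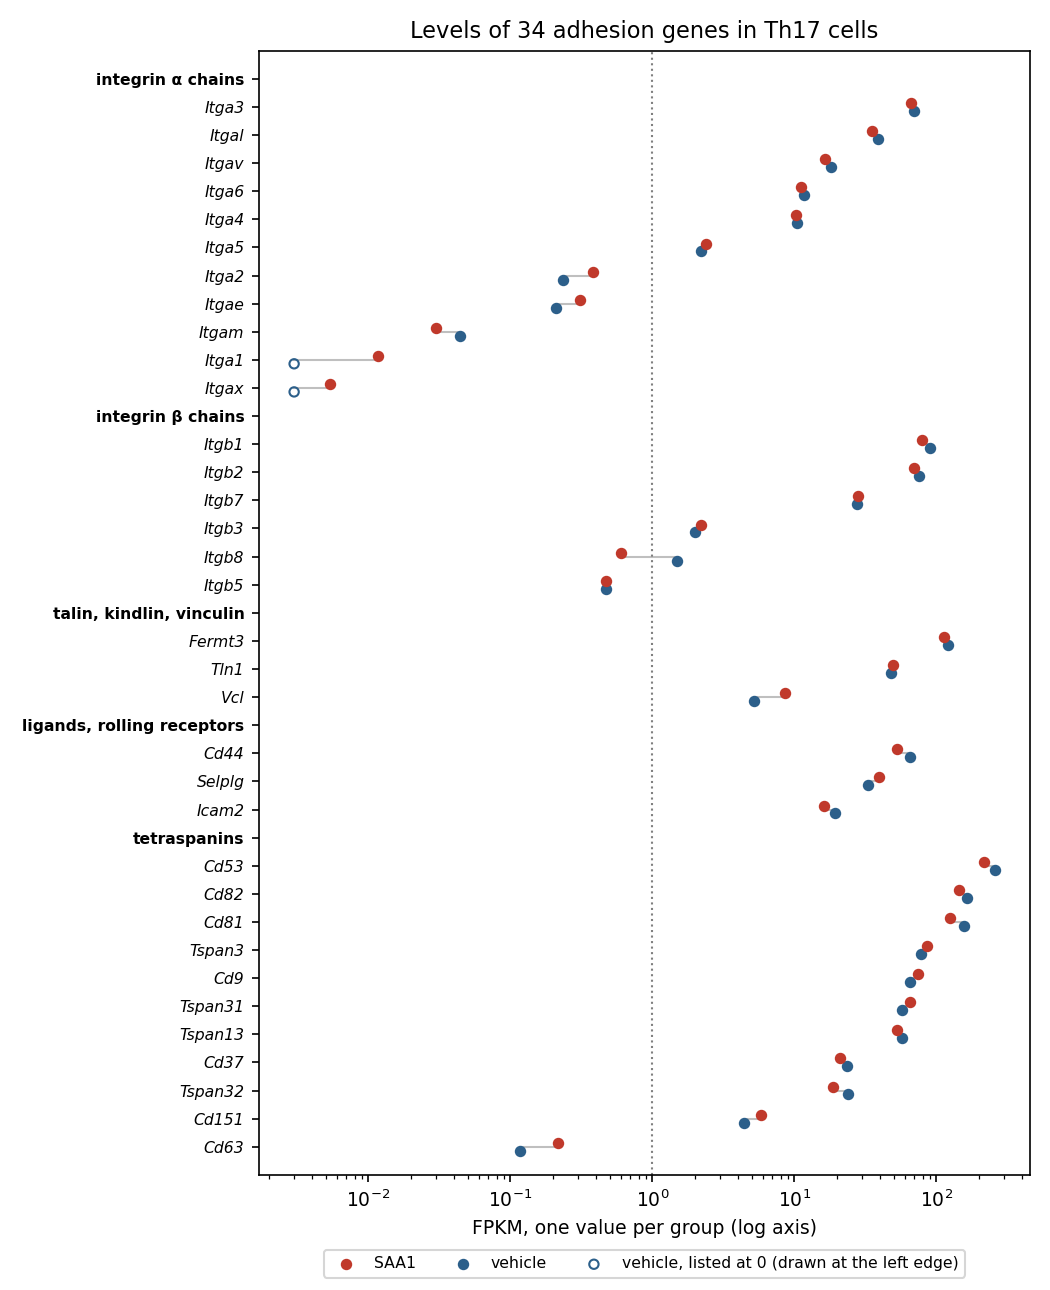
Level of each of the 34 adhesion genes in FPKM on a log axis, as 1 value for SAA1 (red) and 1 for vehicle (blue), ordered by the SAA1 level within each role; the dotted line marks 1 FPKM. The points of a gene lie close together for most genes from Cd53, at 216 and 257 FPKM, down to Itga5, at 2.37 and 2.18 FPKM; open circles stand for genes listed at 0 with vehicle.

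Among the α chains, 6 of 11 reached 1 FPKM and were tested, and none was called, with none at an unadjusted p under 0.05 either in the authors' deposited table. Itga3, whose product joins β1 as the laminin receptor α3β1, was the most abundant, at 66.2 FPKM with SAA1 and 69.5 FPKM with vehicle. Itgal, the α chain of LFA-1, which binds ICAM molecules on other cells, was at 35.2 FPKM with SAA1 and 38.6 FPKM with vehicle. Thus the leading α transcript of these cultures belonged to a laminin receptor, and it exceeded the LFA-1 α chain in both groups.

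Itgav, Itga6 and Itga4 followed at 10 FPKM or more. Itga6, of the laminin receptor α6β1, was at 11.1 FPKM with SAA1 and 11.7 FPKM with vehicle. Itga4, whose product binds VCAM-1 when joined to β1 and MAdCAM-1 of gut vessels when joined to β7, was at 10.2 FPKM with SAA1 and 10.5 FPKM with vehicle. The last of the tested chains, Itga5, of the fibronectin receptor α5β1, was at 2.37 FPKM with SAA1 and 2.18 FPKM with vehicle. Their log2 ratios lay between -0.16 (Itgav) and 0.12 (Itga5), each smaller than its SE.

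The remaining 5 α chains were under 1 FPKM in both groups and were not tested by the authors. Itgae, the αE chain (CD103) of the receptor for epithelial E-cadherin, was at 0.310 FPKM with SAA1 and 0.210 FPKM with vehicle. Itga2, of a collagen receptor, was at 0.380 FPKM with SAA1 and 0.235 FPKM with vehicle. Itgam, the αM chain typical of myeloid cells, was at 0.0299 FPKM with SAA1 and 0.0444 FPKM with vehicle. Itga1, of another collagen receptor, and Itgax, the αX chain (CD11c) of dendritic cells, were listed at 0 with vehicle and at 0.0117 and 0.00539 FPKM with SAA1. At such levels no difference could be read. The loci of Itga1, Itgae and Itga4 each overlap another gene row (Pelo, Gsg2 and Cerkl), so their reads are uncertain.

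The β chains fell into an abundant and a scarce class. Itgb1, the chain shared by most matrix receptors, was at 79.1 FPKM with SAA1 and 90.3 FPKM with vehicle (log2 ratio -0.19 ± 0.20). Itgb2, the β chain of LFA-1, was at 68.9 FPKM with SAA1 and 75.1 FPKM with vehicle (-0.12 ± 0.20). Itgb7, of the gut-homing integrin α4β7, was at 27.8 FPKM with SAA1 and 27.6 FPKM with vehicle (0.01 ± 0.21). None of these 3 passed the test, and the interval of the Itgb7 log2 ratio ran from -0.39 to 0.42 (95%, 1.96 SE). Itgb3, which joins αv in a receptor for RGD-bearing matrix proteins, was at 2.20 FPKM with SAA1 and 2.00 FPKM with vehicle (0.14 ± 0.26). Itgb5, another partner of αv, was at 0.470 FPKM with SAA1 and 0.471 FPKM with vehicle and was not tested. Of the β chains of αv, Itgb8 alone was called.

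Set side by side by known heterodimer, the chains differed widely in abundance, and αvβ8, given above, was the only pair with a called chain. Of 15 known pairs, 8 had both chains at 1 FPKM or more in both groups, and αvβ8 met this level with vehicle only. For LFA-1, the β transcript exceeded the α transcript 1.96-fold with SAA1 and 1.94-fold with vehicle. For α4β7 that ratio was 2.72 with SAA1 and 2.63 with vehicle, whereas for αEβ7 it was 89.6 with SAA1 and 131 with vehicle, with Itgae scarce. The 7 α chains listed as partners of β1 summed to 106.6 FPKM with SAA1 and 112 FPKM with vehicle. Itga3 made up 62.1% of that sum with SAA1 and 61.9% with vehicle. These ratios compare transcripts, and the share of each protein dimer at the surface was not measured.

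The receptors of rolling and the LFA-1 ligand were well expressed and not called. Selplg, which encodes the selectin ligand PSGL-1, was at 39.4 FPKM with SAA1 and 33.2 FPKM with vehicle (log2 ratio 0.25 ± 0.20, adjusted p 0.41 in the authors' deposited table). Cd44, the hyaluronan receptor of activated T cells, was at 53.2 FPKM with SAA1 and 64.8 FPKM with vehicle (-0.29 ± 0.20). Its unadjusted p was 0.042 and its adjusted p 0.28 in the authors' deposited table, so the difference did not pass. Icam2, a ligand of LFA-1, was at 16.1 FPKM with SAA1 and 19.3 FPKM with vehicle (-0.26 ± 0.24).

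Tetraspanins gave the most abundant transcripts of the set. Cd53, a tetraspanin of leukocytes, ranked first of the 34 genes in both groups, at 216 FPKM with SAA1 and 257 FPKM with vehicle (log2 ratio -0.25 ± 0.20). Cd82 followed at 145.0 FPKM with SAA1 and 164 FPKM with vehicle (-0.18 ± 0.20), and Cd81, a partner of several lymphocyte receptors, at 124 FPKM with SAA1 and 156 FPKM with vehicle. The loci of Cd81 and Cd82 each overlap another gene row. These 3 transcripts and that of kindlin-3 were the members at 100 FPKM or more in both groups, and none was called.

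None of the 10 tested tetraspanins of the set, of 11 in all, was called by Cuffdiff, and 2 had an unadjusted p under 0.05. The lowest log2 ratio among them was that of Tspan32, a tetraspanin of blood cells, at 18.7 FPKM with SAA1 and 23.9 FPKM with vehicle (-0.35 ± 0.22). Its neighbour Cd81, which begins 13135 bases further along chromosome 7, had a log2 ratio of -0.33 ± 0.20. Their unadjusted p values were 0.022 and 0.021, and their adjusted p values 0.19 and 0.18, in the authors' deposited table. Both values were lower with SAA1, and neither was a call. Over all tested genes 15.8% had an unadjusted p under 0.05, and 5 of the 27 adhesion genes did (Vcl, Itgb8, Cd44, Cd81 and Tspan32).

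The other tetraspanins lay on either side of no difference. Cd151, which binds laminin-binding integrins directly, had the highest log2 ratio among them, at 5.78 FPKM with SAA1 and 4.42 FPKM with vehicle (0.39 ± 0.28). Cd9, a partner of β1 integrins, was at 74.2 FPKM with SAA1 and 65.3 FPKM with vehicle (0.18 ± 0.21). Cd37, a tetraspanin of lymphoid cells, was at 21.04 FPKM with SAA1 and 23.6 FPKM with vehicle (-0.17 ± 0.23). Tspan3, Tspan31 and Tspan13 had 85.4, 65.1 and 52.4 FPKM with SAA1, and 78.3, 57.1 and 57.6 FPKM with vehicle. Their log2 ratios were 0.13, 0.19 and -0.14, each below its SE of 0.20 to 0.21. Cd63, which marks late endosomes and lysosomes, was at 0.215 FPKM with SAA1 and 0.116 FPKM with vehicle and was not tested.

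The implied SE gives 95% intervals on a normal reading of the deposited statistic, which the deposited p-values do not follow. Cd44 had an unadjusted p of 0.042 in the authors' deposited table, yet its interval ran from -0.68 to 0.11. The intervals of Cd81 and Tspan32 also included 0 despite an unadjusted p under 0.05, while those of Vcl and Itgb8 did not. The spread may be technical only, so these intervals need not bound a difference between separate cultures. For 25 of the 27 tested genes the 95% interval of the log2 ratio lay within a 2-fold difference in either direction, and for 13 of the 27 within a 1.5-fold difference. The 2 genes whose intervals reached beyond a 2-fold difference were the called ones. The order of the 34 genes by level hardly differed, with no gene shifted by more than 2 ranks between SAA1 and vehicle. Over the 27 members that reached 1 FPKM in a group, the median log2 ratio (pseudocount 0.1) was -0.09, beside -0.02 over all 10701 genes at that level. Itgb8 entered that median through vehicle alone.

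**Figure D3:**
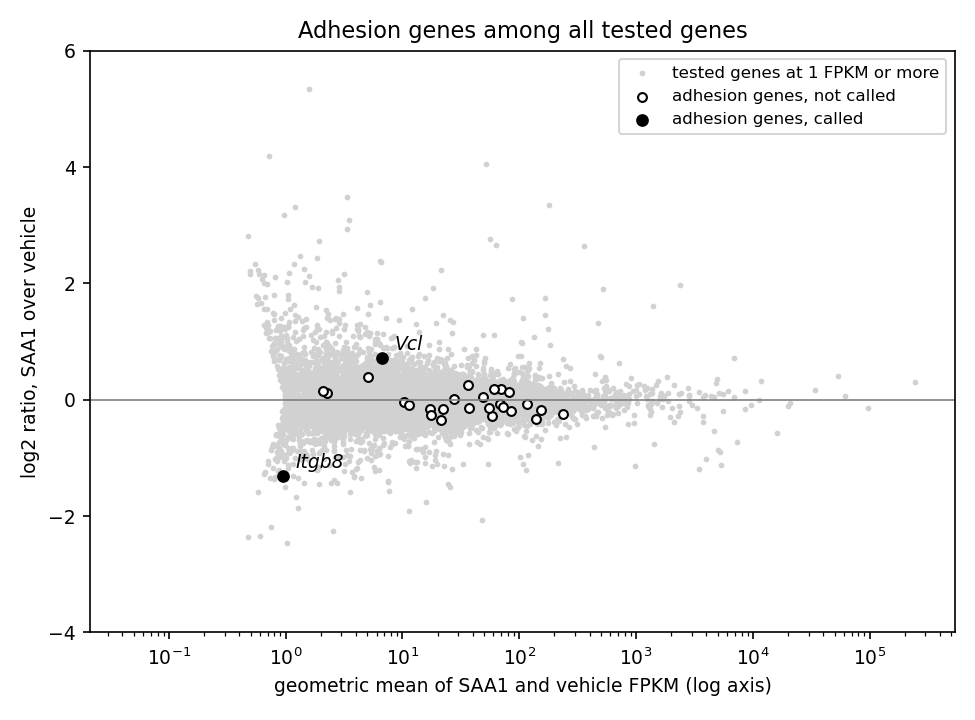
Log2 ratio of SAA1 over vehicle against the geometric mean of the 2 group levels in FPKM (log axis) for the tested genes that reached 1 FPKM in a group (grey) and the 27 tested adhesion genes (circles). The 25 uncalled adhesion genes sit inside the grey cloud near 0. Vcl is at 0.72, a ratio that other tested genes exceed, and Itgb8 is at the low end of expression at -1.32. In all, 5 genes lie outside the plotted range.

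Beyond the 34 genes, 9 lists of related adhesion genes held 162 further genes in the table, of which 105 were tested. Of these, 10 were called higher and 4 lower, 13.3% in all, beside 6.52% over all tested genes (3.97% higher and 2.55% lower). By list the share ran from 0% to 33.3%, and no list had more than 22 tested genes. The lists were chosen with earlier results of these data known, so these shares were not tested. The median log2 ratio of their 95 expressed genes was 0.03.

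Tetraspanins outside the set gave 3 of these calls. Of 9 tested among 20 listed, 3 were called higher and 0 lower (33.3% called, beside 6.52% over all tested genes). Tspan2 rose to 14.5 FPKM with SAA1, against 8.33 FPKM with vehicle (log2 ratio 0.80 ± 0.22); its locus overlaps that of 2410057H14Rik. Tspan6 rose to 30.9 FPKM with SAA1, against 18.8 FPKM with vehicle (0.72 ± 0.22). Rom1, best known as a protein of photoreceptor membranes, rose to 4.61 FPKM with SAA1, against 2.48 FPKM with vehicle (0.90 ± 0.33). Their adjusted p was 0.0019, 0.0019 and 0.0047 in the authors' deposited table. Read against a normal distribution, the deposited statistic of Tspan6 and Rom1 gave an adjusted p of 0.053 and 0.18, and those calls were lost. Tspan5, a tetraspanin that escorts the protease ADAM10, was at 19.3 FPKM with SAA1 and 16.3 FPKM with vehicle and was not called.

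Known partners of tetraspanins included 2 genes called higher and 0 lower of 10 tested (20% called, beside 6.52% over all tested genes). Ptgfrn, which encodes a membrane protein that binds CD9 and CD81, rose to 12.9 FPKM with SAA1, against 8.54 FPKM with vehicle (log2 ratio 0.60 ± 0.21). Ifitm3, an antiviral membrane protein of a family with similar copies, rose to 20.6 FPKM with SAA1, against 9.21 FPKM with vehicle (1.16 ± 0.31). On the normal reading of the statistic Ptgfrn lost its call (adjusted p 0.13). Cd4 was at 131 FPKM with SAA1 and 162 FPKM with vehicle, and Adam10 at 22.6 FPKM with SAA1 and 28.2 FPKM with vehicle. Their adjusted p of 0.23 and 0.20 in the authors' deposited table did not pass.

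Of 17 tested adhesion molecules of the immunoglobulin superfamily, 0 were called higher, 3 lower and 14 not at all. The share called was 17.6%, beside 6.52% over all tested genes (3.97% higher and 2.55% lower). Cd226 (DNAM-1), an activating receptor known to associate with LFA-1, fell to 17.7 FPKM with SAA1, against 34.2 FPKM with vehicle (log2 ratio -0.95 ± 0.21). Crtam, a receptor of activated T cells, fell to 8.76 FPKM with SAA1, against 13.4 FPKM with vehicle (-0.61 ± 0.23). Cd84, a homophilic receptor of the SLAM family, fell to 33.3 FPKM with SAA1, against 44.9 FPKM with vehicle (-0.43 ± 0.20). Their adjusted p was 0.0019, 0.0047 and 0.046 in the authors' deposited table. Read against a normal distribution, the deposited statistic of Crtam and Cd84 gave an adjusted p of 0.22 and 0.49, and those calls were lost. The most abundant genes of the list, Bsg and Cd6, were at 367 and 246 FPKM with SAA1 and at 329 and 253 FPKM with vehicle. Neither was called, and the locus of Bsg spans many gene rows.

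The list of selectins, their ligands and the enzymes that decorate them held 14 tested genes, and 2 called higher are described here. Over all tested genes 3.97% were called higher. Cd24a, a glycoprotein that can carry P-selectin ligands and that has similar copies in the mouse genome, rose to 88.9 FPKM with SAA1, against 40.9 FPKM with vehicle (log2 ratio 1.12 ± 0.20). Fut4, a fucosyltransferase of selectin ligand synthesis, rose to 2.82 FPKM with SAA1, against 1.74 FPKM with vehicle (0.70 ± 0.29). Their adjusted p was 0.0019 and 0.020 in the authors' deposited table. Fut4 lost its call on the normal reading (adjusted p 0.33). Spn, the sialomucin CD43, was at 224 FPKM with SAA1 and 238 FPKM with vehicle and was not called.

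**Figure D4:**
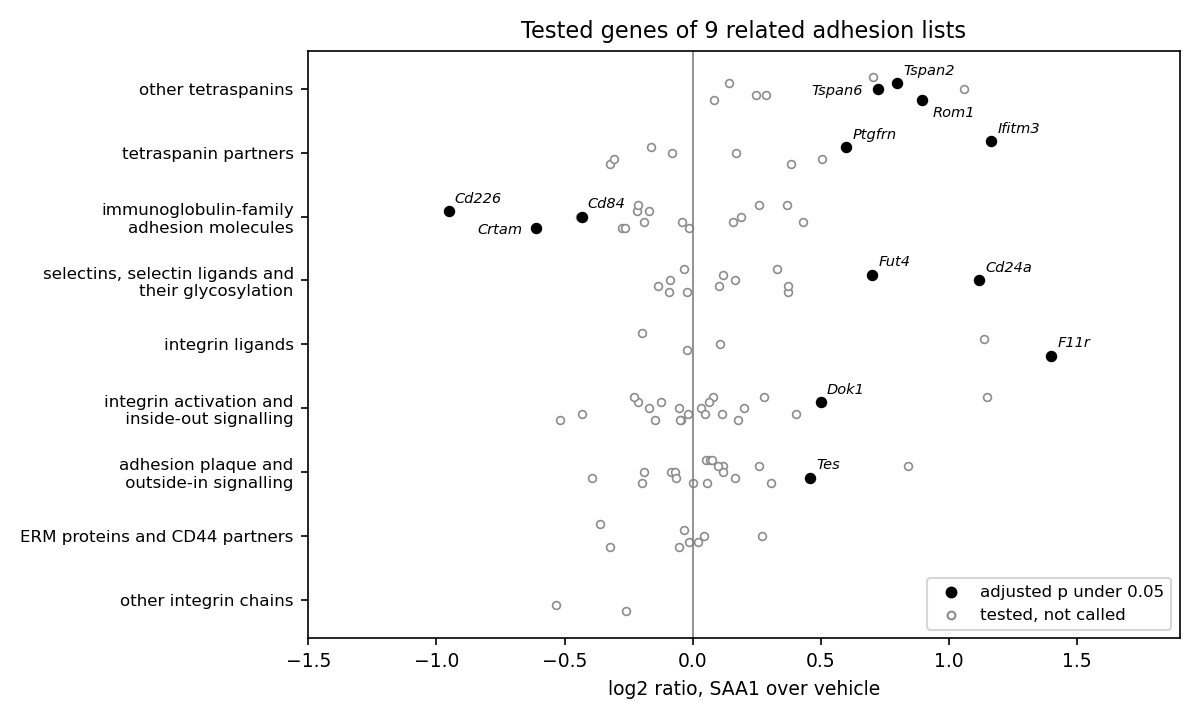
Log2 ratio of SAA1 over vehicle for the tested genes of 9 related adhesion lists that are reported here, 1 list per row and 1 point per gene, filled and named where the authors' deposited table gave an adjusted p under 0.05. Called tetraspanins and tetraspanin partners lie to the right of 0, called immunoglobulin-family receptors to the left, from Cd226 at -0.95, and those shown of the selectin list to the right, with Cd24a at 1.12.

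In the inside-out signalling and adhesion plaque lists, 4.55% and 5.26% of tested genes were called, near the 6.52% over all tested genes. In inside-out signalling, which carries receptor signals to the integrin, 1 of 22 tested genes was called higher and 0 lower. That was Dok1, an adaptor that binds integrin β tails, at 22.8 FPKM with SAA1, against 16.1 FPKM with vehicle (log2 ratio 0.50 ± 0.22, adjusted p 0.023 in the authors' deposited table). Rap1b, the GTPase that recruits talin, was at 282 FPKM with SAA1 and 260.2 FPKM with vehicle, and filamin A (Flna) at 145 FPKM with SAA1 and 138 FPKM with vehicle. Neither was called. In the adhesion plaque, 1 of 19 tested genes was called higher and 0 lower. That was Tes (testin), a LIM protein of adhesion sites, at 108 FPKM with SAA1, against 78.9 FPKM with vehicle (0.46 ± 0.20, adjusted p 0.020 in the authors' deposited table). Arpc2 and Vasp, which act on actin assembly, were at 279 and 157 FPKM with SAA1 and at 296 and 145 FPKM with vehicle, and were not called. On the normal reading Dok1 and Tes lost their calls (adjusted p 0.40 and 0.39).

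Ligands, other integrin chains and membrane linkers added a single call. Over all tested genes 6.52% were called, and 15.8% had an unadjusted p under 0.05. Of 5 tested integrin ligands, F11r (JAM-A), a junctional ligand of LFA-1, was called higher although scarce, at 0.734 FPKM with SAA1, against 0.279 FPKM with vehicle (adjusted p 0.038 in the authors' deposited table; not called on the normal reading, at 0.31). Icam1, the main ligand of LFA-1, was at 33.8 FPKM with SAA1 and 34.4 FPKM with vehicle, and Mfge8, a ligand of αv integrins, at 17.2 FPKM with SAA1 and 16.0 FPKM with vehicle. Neither was called. None of the 8 tested ERM and CD44-partner genes was called by Cuffdiff, and 2 had an unadjusted p under 0.05. Their most abundant members, radixin (Rdx) and ezrin (Ezr), were at 99.6 and 87.0 FPKM with SAA1 and at 98.2 and 84.4 FPKM with vehicle. Of 11 other integrin chains, led by Itga9 and Itga10, none reached 1 FPKM and 2 were tested. None was called by Cuffdiff, and 1 had an unadjusted p under 0.05.

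Markers placed the cells among T cells. The 9 T cell markers in the table were all expressed, led by Cd5 and Lck, with Thy1 called higher and Cd3e called lower. On the normal reading of the deposited statistic Thy1 and Cd3e lost their calls (adjusted p 0.18 and 0.47). Myeloid markers summed to 106.7 FPKM with SAA1 and 105 FPKM with vehicle, nearly all of it Cst3 and Ctss, with Lyz2 and Csf1r under 0.2 FPKM and C1qa at 0 in both groups. Of 10 platelet and erythroid markers none reached 1 FPKM (Alas2 and Gp1ba led), of 8 B cell markers only Ebf1 did, and of 9 CD8 and natural killer markers 3 did, led by Nkg7 and Cd8b1. In the order given, these 4 lists held 6, 1, 3 and 4 tested genes. None of the tested genes was called by Cuffdiff, and 3 had an unadjusted p under 0.05. Over all tested genes these shares were 6.52% and 15.8%. Stromal and epithelial markers summed to 11.1 FPKM with SAA1 and 27.2 FPKM with vehicle, and Lum and Pecam1 made up most of it. Lum was lower with SAA1 (5.83 FPKM) than with vehicle (21.97 FPKM), as Itgb8 was. Of the 12 markers of that list 3 were tested, and Lum alone was called. The 9 others were not tested by the authors and lay on both sides. Among them, Col1a1 was at 0.208 FPKM with SAA1 and 0.0708 FPKM with vehicle. Pdgfra was at 0.0283 FPKM with SAA1 and 0.0418 FPKM with vehicle. The part of other cells in the Itgb8 difference was not tested.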

How the data were processed

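The members and lists were chosen with earlier results of these data known. TopHat2 and Cuffdiff are named without versions, with the builds mm9 and mm10, in the submitters' processing notes; the sources used here give no settings for scaling or strand. The authors deposited 1 FPKM value per group, a test statistic (a score: log ratio over its SE), a p-value and a q-value per gene, per the file headers. The q-value is the Benjamini-Hochberg adjustment over the 11481 tested rows (largest gap from a recomputation 5.23e-07). From these, log2 ratios, implied SEs (ratio over statistic) and 95% intervals (1.96 SE) were computed in Python 3.11.15 with pandas 2.3.3 and scipy 1.17.1, and the scripts were tested on simulated data. A pseudocount of 0.1 entered medians only, over genes that reached 1 FPKM in a group. With group values only, the count and limma tests foreseen for values per library were not run. Loci overlapped GENCODE M21 positions in 99.1% of 21628 matched symbols, and 1 was added to each start. Named were all 34 genes and, per related or marker list, up to 4 called genes and the 2 most abundant; Tgfb1, Col1a1, Pdgfra, Lyz2, Csf1r, C1qa and the genes of the closing section were chosen after their values were seen. Not every gene that this rule names is reported here. Alternatives covered thresholds, a minimum fold of 1.5, expression filters, recomputed p-values, shared loci, centring and pseudocounts.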

Additional observations from a re-analysis of the deposited data

How the results depend on the processing

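Vcl and Itgb8 remained the 2 called members, 1 higher and 1 lower, under all 7 alternatives for the test. Most of these could not have removed them. The threshold of 0.1 is looser, the recomputed adjustment equals the deposited one, both genes differed by more than 1.5-fold, and neither shares a locus. Their deposited adjusted p of 0.0019 already lay under 0.01, and both reached 1 FPKM in a group, so the expression filter kept them. No log2 ratio of the 27 tested members changed sign with centring, while a pseudocount added to both groups cannot change a sign. Reading the deposited statistic against a normal distribution, two-sided, was less permissive and could have removed both calls. It gave an adjusted p of 0.049 for Vcl and 0.041 for Itgb8, both close to the threshold of 0.05. Under it 245 of all tested genes were called (153 higher, 92 lower) in place of 749, and 5 of the 14 called genes of the related lists (3 higher, 2 lower) were still called, Cd226, Cd24a, Ifitm3 and Tspan2 among them, while Crtam, Cd84, Tspan6, Rom1, Ptgfrn, Fut4, Dok1, Tes and F11r were not. At an adjusted p under 0.01 the counts were 436 (283 higher, 153 lower) and 9 (6 higher, 3 lower). At 0.1 the related lists had 7 lower calls in place of 4. A minimum fold of 1.5 left 187 lower calls of 293 over all genes. The median log2 ratio of the members lay between -0.10 and -0.05 under all settings. No paired analysis was possible because the table holds 1 value per group, and leaving out a replicate was not possible for the same reason. Depth is unknown, which limits what can be said of Itgb8 and of the members under 1 FPKM.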

Other observations

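Between an adjusted p of 0.05 and 0.1 in the authors' deposited table lay 6 of the 105 tested genes of the related lists. They are named here after their values were seen. Of these, 4 belong to the list of inside-out integrin signalling, which had 22 tested genes. Over all 11481 tested genes, 749 were called at 0.05 and 1011 at 0.1, and no test compared the lists. Rasgrp2, the exchange factor that activates Rap1, was at 1.00 FPKM with SAA1 and 0.453 FPKM with vehicle (adjusted p 0.056 in the authors' deposited table). Cyth1, which encodes cytohesin-1, a regulator of LFA-1, was at 33.6 FPKM with SAA1 and 25.4 FPKM with vehicle (0.069). Apbb1ip, the Rap1 effector RIAM that brings talin to integrins, was at 3.08 FPKM with SAA1 and 4.41 FPKM with vehicle (0.090), and Fyb, the adaptor ADAP, at 11.3 FPKM with SAA1 and 15.2 FPKM with vehicle (0.059). The other two were adhesion plaque genes. Actn4, a cross-linker of actin, was at 27.1 FPKM with SAA1 and 35.6 FPKM with vehicle (0.086), and Bcar1, the scaffold p130Cas, at 1.01 FPKM with SAA1 and 0.562 FPKM with vehicle (0.067). None of the 6 passed the threshold of 0.05, and they lay on both sides of no difference. On the normal reading of the deposited statistic their adjusted p ran from 0.37 (Rasgrp2) to 0.67 (Apbb1ip).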
